A study of Mus musculus with 4 samples.

Results

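The genes described here are 32 members of the immunoglobulin-type neuronal adhesion families and of the contactin-associated proteins, of the 32285 genes listed in the count matrices. They were chosen by name: 6 contactins (Cntn1 to Cntn6), 7 contactin-associated proteins (Cntnap1, Cntnap2, Cntnap3, Cntnap4, Cntnap5a, Cntnap5b and Cntnap5c), 5 IgLONs (Lsamp, Ntm, Opcml, Negr1 and Iglon5), 4 L1-family genes (Chl1, L1cam, Nrcam and Nfasc), Ncam1 and Ncam2, 4 genes of the DSCAM and sidekick type (Dscam, Dscaml1, Sdk1 and Sdk2), and Alcam, Mdga1, Mdga2 and Igsf3. Their unique molecular identifiers (UMIs, which count captured mRNA molecules) were read in single cells from mouse cerebellum at E14.5 (embryonic day). Cells were sorted for the red fluorescent protein tdT. Control embryos were Atoh1-Cre/+; R26LSL-tdT/+, so that Cre, made where the Atoh1 gene of rhombic lip precursors is active, turns on tdT permanently in those cells and their descendants. En1/2 CKO embryos carried Cre and tdT as well as En1lox/lox, En2lox/lox, so that both Engrailed transcription factors are deleted in the same lineage while other cells keep them. Embryos were pooled for each library, and there were 2 control and 2 CKO libraries. Replicate numbers are shared by the groups, but nothing in the labels ties a control library to a CKO library. Tests therefore measure the spread between pools of embryos.

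Adhesion proteins of the immunoglobulin type sit on axons and growth cones and bind one another across cells through stacked immunoglobulin domains. The contactin-associated proteins are neurexin-like and not of this type. Contactins and IgLONs are held in the membrane by a lipid anchor, and contactins signal through partners such as the contactin-associated proteins and L1-type proteins. In the embryonic cerebellum, Cntn2 (TAG-1) marks granule cells as they leave the cell cycle, and L1, NrCAM and neurofascin are known for axon growth and for organising the axon membrane. The Atoh1 lineage yields granule cell precursors, excitatory neurons of the cerebellar nuclei and unipolar brush cells. Cells were therefore read in 4 sets: Pax6>Meis2 cells (more Pax6 than Meis2 UMIs, Pax6 being a granule lineage factor), Meis2>Pax6 cells (the reverse, Meis2 being a factor of nuclei neurons), cells with an Olig2 UMI, and cells with a Tbr1 or Lmx1a UMI. Olig2, Tbr1 and Lmx1a are transcription factors of subsets of rhombic lip derivatives.

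Promoter sequences are shown for 4 members on which results turn: Nrcam, whose genotype difference depended on the cell set, Cntn5, among the members with the largest difference between sets, and Cntn1 and Ntm, which were lower in Meis2>Pax6 cells while most members were higher. Each is the 250 bases before the first listed start in RefSeq (GRCm38.p6), read 5′ to 3′ on the gene's own strand. These windows overlap no exon of GENCODE M21; that of Ntm lies inside the gene's full span, before an internal start. Capitals mark TGACAG, a sequence that Meis-type homeodomain proteins are known to bind.
Nrcam (chr12:44328635-44328884, plus strand): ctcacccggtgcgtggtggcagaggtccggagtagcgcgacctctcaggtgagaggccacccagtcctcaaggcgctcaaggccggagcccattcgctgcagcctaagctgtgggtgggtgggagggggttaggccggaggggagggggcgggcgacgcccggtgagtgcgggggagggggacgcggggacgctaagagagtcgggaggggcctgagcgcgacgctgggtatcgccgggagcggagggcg
Cntn5 (chr9:10904776-10905025, minus strand): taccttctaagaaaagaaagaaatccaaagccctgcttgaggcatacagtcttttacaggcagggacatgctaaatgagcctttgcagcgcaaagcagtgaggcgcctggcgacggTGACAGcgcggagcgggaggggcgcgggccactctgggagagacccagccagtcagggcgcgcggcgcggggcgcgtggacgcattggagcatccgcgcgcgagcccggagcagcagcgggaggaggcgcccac
Cntn1 (chr15:92050915-92051164, plus strand): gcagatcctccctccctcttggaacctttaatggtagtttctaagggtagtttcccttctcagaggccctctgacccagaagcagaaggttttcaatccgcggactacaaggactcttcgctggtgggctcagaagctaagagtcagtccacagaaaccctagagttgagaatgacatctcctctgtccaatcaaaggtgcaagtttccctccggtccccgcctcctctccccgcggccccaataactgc
Ntm (chr9:29413453-29413702, minus strand): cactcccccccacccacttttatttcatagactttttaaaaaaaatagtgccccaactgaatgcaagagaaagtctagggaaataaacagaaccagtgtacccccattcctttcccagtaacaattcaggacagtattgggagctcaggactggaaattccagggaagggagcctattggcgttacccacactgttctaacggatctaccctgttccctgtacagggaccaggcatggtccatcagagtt
In Cntn5 the motif began 134 bases before the start, and the windows of Nrcam, Cntn1 and Ntm shown here do not hold it. Of the 32 members, 26 had at least 1 such window, 35 windows in all. TGACAG on either strand lay in windows of Cntn1 (another start), Cntn2, Cntn5 and Cntnap2, 4 of 26 members. By windows this was 5 of 35, against 15.9% of 32851 windows of the same length. TAATTA, the homeodomain core that Engrailed proteins bind, lay in 1 member (Cntn4), 1 of 35 windows against 4.84%. CAGCTG, an E-box form bound by Atoh1-type factors, lay in 5 members (Cntn4, Cntn6, Cntnap3, Iglon5 and Igsf3), 5 of 35 windows against 13%. A match is a string of letters and was not tested for binding.

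Kept cells (those with 500 or more genes, 1000 or more UMIs and a mitochondrial share of 10% or less) numbered 2911 and 3931 in control replicates 1 and 2 and 2007 and 3697 in CKO replicates 1 and 2, from libraries of 14998150 to 33709450 UMIs. The Pax6>Meis2 set held 1801, 961, 1208 and 2978 cells in that order, and the Meis2>Pax6 set 603, 2322, 573 and 372. The Olig2 set held 112 to 366 cells and the Tbr1 or Lmx1a set 144 to 511. Between 192 and 509 cells per library were in no set, and any 2 libraries shared 1 to 6 barcodes. En2, the check of the deletion, stood at 109 and 134 CPM (UMIs of the gene per 1000000 UMIs of all genes in the set) in control and at 22.1 and 17.0 in CKO Pax6>Meis2 cells, and it fell in all 4 sets (log2 fold change −2.24 to −2.78, edgeR adjusted p 0.0115 to 0.0348). En1 did not separate the groups in Pax6>Meis2 cells (171 and 237 against 93.0 and 212). The sets matched their labels by markers: all 9 granule lineage markers were higher in Pax6>Meis2 and all 8 nuclei neuron markers in Meis2>Pax6 cells by the edgeR test described next. Pax6 and Meis2 are among those markers and define the sets. The oligodendrocyte factor Sox10 had 0 UMIs in the Pax6>Meis2, Olig2 and Tbr1 or Lmx1a sets.

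The groups differed in ways that bear on every comparison of genotypes that follows. Median UMIs per Pax6>Meis2 cell were 3238 and 2339 in control and 13723 and 9819 in CKO libraries, against 2172 to 3110 in Meis2>Pax6 cells of the 4 libraries. Cycling cells (at least 2 UMIs of 6 mitotic genes) made up 35.9% and 32.2% of control and 53.6% and 42.5% of CKO Pax6>Meis2 cells. Cells with an Atoh1 UMI made up 33.0% and 14.7% against 57.4% and 49.6% there. Both shares rise with the UMIs read per cell, which differed between the groups. With each cell thinned to 2000 UMIs, which left out 467 and 385 control and 165 and 719 CKO cells as too shallow, the cycling shares were 27.5% and 32.5% against 39.1% and 33.0%, and the Atoh1 shares 19.9% and 11.8% against 28.2% and 24.1%. As levels, the 6 mitotic genes summed to 1877 and 1498 against 2218 and 1904 CPM, with 0 of 6 at an unadjusted p under 0.05. Atoh1 stood at 146 and 73.5 against 197 and 159 CPM (log2 fold change 0.81, edgeR adjusted p 0.463). In Meis2>Pax6 cells the thinned shares were 8.51% and 5.90% against 8.60% and 7.21% for cycling cells and 8.98% and 6.43% against 20% and 14.4% for Atoh1 (94.6 and 41.5 against 194 and 119 CPM; log2 fold change 1.31, edgeR adjusted p 0.157). The nuclear RNA Malat1 was lower in each CKO library than in either control, in all 4 sets. Haemoglobin and other erythroid genes summed to 475 CPM in control replicate 2 and 371 in CKO replicate 1 of the Pax6>Meis2 set, against 16.1 and 2.7 in the others. The labels mention 2 replicate experiments but not which libraries belong to each. Whether each experiment held both genotypes is therefore not known here, and the part of experiment in the genotype differences cannot be given.

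**Figure D1:**
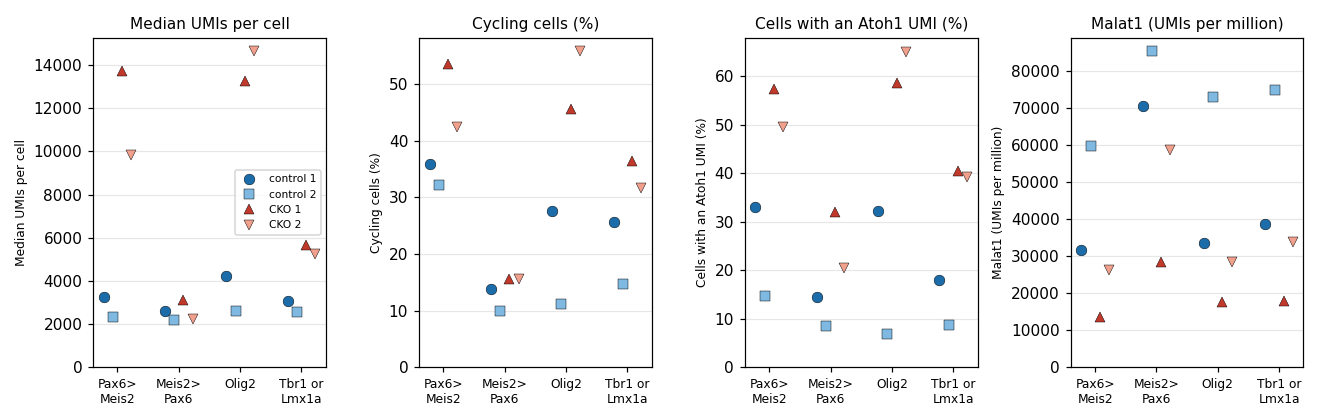
Median UMIs per cell, share of cycling cells, share of cells with an Atoh1 UMI (both in %) and Malat1 level (CPM) in each of the 4 cell sets, 1 point per library. The shares are as read, not thinned. In Pax6>Meis2 cells the CKO libraries lie at 13723 and 9819 median UMIs, above the controls at 3238 and 2339.

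The first question was which adhesion genes each cell type carried. By the mean over the 4 libraries, Ntm (neurotrimin, an IgLON) led in Pax6>Meis2 cells and Ncam1 in Meis2>Pax6 cells. In CKO replicate 1 of the Pax6>Meis2 set, Ntm (225) lay below Ncam1 (308) and Cntn2 (261). Levels are CPM, from UMIs summed over a set's cells in a library. They count 3′ ends, 1 per captured molecule, and are not divided by gene length. In Pax6>Meis2 cells Ntm stood at 771 and 815 in control and 225 and 939 in CKO libraries, with CKO replicate 1 far below the other 3 libraries. Ncam1 followed at 361 and 790 against 308 and 252, and Cntn2 at 216 and 415 against 261 and 246. Nrcam, Mdga1, Nfasc, Igsf3 and L1cam made up the rest of the highest 8, with ranges over the 4 libraries of 136 to 255, 148 to 195, 95.2 to 206, 94.0 to 148 and 44.3 to 143. Ranges of neighbours in this order overlapped.

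In Meis2>Pax6 cells Ncam1 stood at 1733 and 1977 in control and 1182 and 1348 in CKO libraries. Cntn2 followed at 633, 827, 1101 and 1255, so that its highest library overlapped the lowest of Ncam1. Ntm (149 to 589), Nrcam (213 to 367), Negr1 (125 to 443), Mdga1 (198 to 311), Nfasc (165 to 209) and Chl1 (136 to 190) completed the highest 8. Ntm lay below Cntn2 in every library, and the ranges of the 6 genes from Ntm on overlapped with those of their neighbours. At the other end, Cntnap3 had 1 UMI in the 4 sets together, and Cntnap5b and Cntnap5c stayed at or under 1.08 CPM in every library of every set. Cntnap5a, Cntnap5b and Cntnap5c are close copies, and how reads shared between them were assigned is not given in the sources used here. Summed over all 32 members the level was 1586 to 3441 in Pax6>Meis2 and 3984 to 5257 in Meis2>Pax6 cells.

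**Figure D2:**
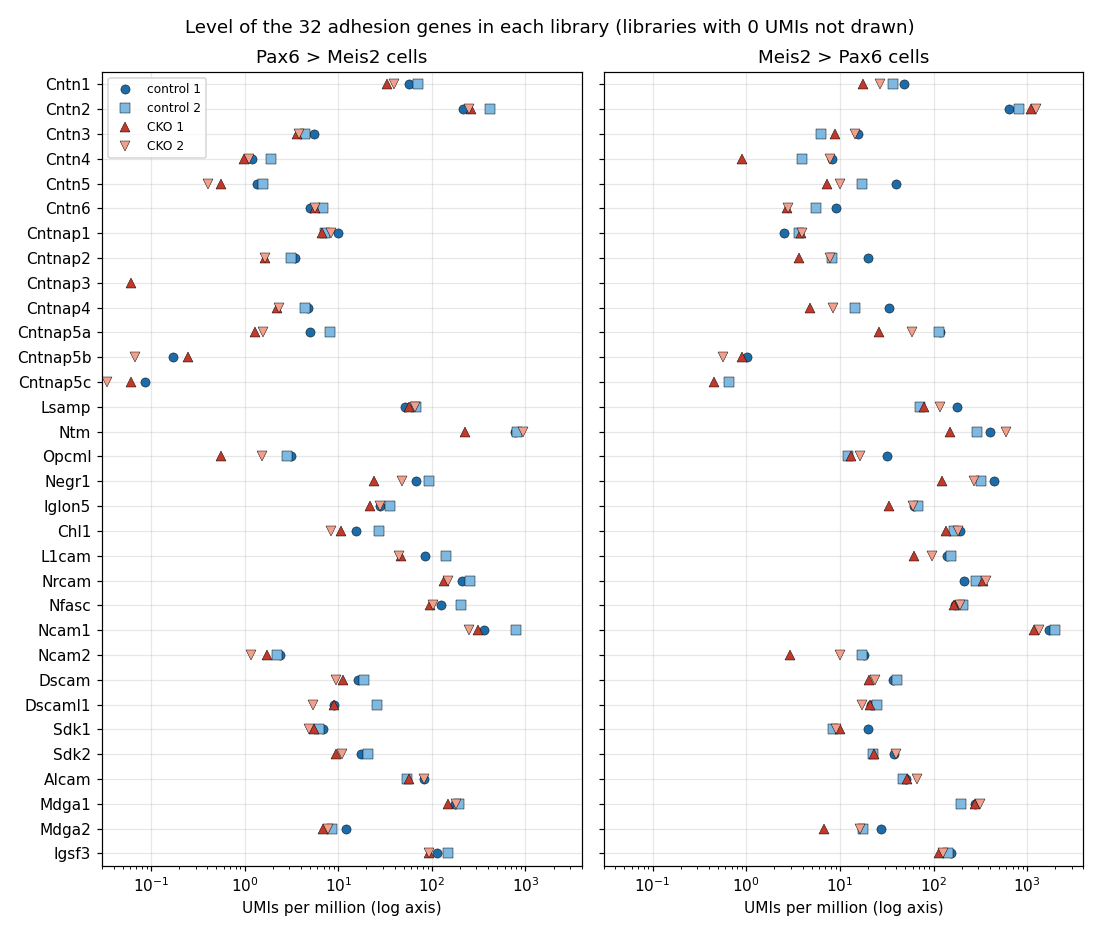
Level of each of the 32 adhesion genes (CPM, log axis) in Pax6>Meis2 and Meis2>Pax6 cells, 1 point per library, blue for control and red for CKO; libraries with 0 UMIs are not drawn. The point farthest right belongs to Ntm in the left panel and to Ncam1 in the right panel, while Cntnap3, Cntnap5b and Cntnap5c sit at the left.

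Most members were higher in Meis2>Pax6 cells. The difference was tested within libraries (edgeR quasi-likelihood test on summed counts with the library as a block, over 12387 genes), and a gene is called at a Benjamini-Hochberg adjusted p under 0.05. Of 28 members tested, 26 were called, 22 higher and 4 lower in Meis2>Pax6 cells, where 52.3% of all genes were called, 25.3% higher and 27% lower. The median log2 fold change was 0.89 over the members and −0.01 over all genes. The 4 lower genes were Cntn1, Cntnap1, Ntm and Alcam. Cntn6 and Igsf3 were tested and not called, and Cntn4, Cntnap3, Cntnap5b and Cntnap5c had too few counts. The compared cells also differed in cycling share (9.91% to 15.6% of Meis2>Pax6 cells in the 4 libraries, and 5.90% to 8.60% against 27.5% to 39.1% in thinned cells), and Malat1 was higher in Meis2>Pax6 cells of each library.

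The largest differences were in genes that were sparse in Pax6>Meis2 cells. Cntnap5a, a neurexin-like partner protein, stood at 5.05, 8.20, 1.29 and 1.57 in Pax6>Meis2 cells of control 1, control 2, CKO 1 and CKO 2, and at 117, 115, 26.3 and 58.4 in Meis2>Pax6 cells. Every library of the second set was above every library of the first (log2 fold change 4.46, SE 0.17, edgeR adjusted p 1.61e-08). Cntn5, a contactin known from sensory and auditory circuits, was at 0.410 to 1.58 against 7.24 to 39.7 (4.24, SE 0.28, edgeR adjusted p 2.22e-07), from 5 to 16 UMIs per library in Pax6>Meis2 cells. Opcml, an IgLON, was at 0.553 to 3.17 against 12.2 to 32.05 (3.34, SE 0.28, edgeR adjusted p 1.41e-06).

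Chl1, the close homologue of L1, was at 8.38 to 27.1 in Pax6>Meis2 and 136 to 190 in Meis2>Pax6 cells (log2 fold change 3.57, SE 0.19, edgeR adjusted p 9.52e-08). The other L1-family genes differed less, with log2 fold changes of 0.64 for Nrcam, 0.50 for L1cam and 0.47 for Nfasc (edgeR adjusted p 0.0123, 0.00452 and 0.0054). In the control libraries alone Nrcam was at 0.08, L1cam at 0.39 and Nfasc at 0.20, none called, and without CKO replicate 2 the calls of Nrcam (0.45, edgeR adjusted p 0.103) and Nfasc (0.36, edgeR adjusted p 0.0532) were lost. Ncam1 was 3.79-fold higher (log2 fold change 1.92, SE 0.14, edgeR adjusted p 5.1e-07) and Ncam2 was 5.3-fold higher (2.40, SE 0.35, edgeR adjusted p 0.000103). Negr1, an IgLON on outgrowing neurites, was at 24.2 to 94.0 in Pax6>Meis2 cells and at 125 to 443 in Meis2>Pax6 cells (2.27, SE 0.12, edgeR adjusted p 8.59e-08). Cntn2 was 3.21-fold higher (1.68, SE 0.17, edgeR adjusted p 4.81e-06), and each of its 4 Meis2>Pax6 values was above each of its 4 Pax6>Meis2 values.

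A few members went the other way. Ntm was lower in Meis2>Pax6 cells (log2 fold change −0.98, SE 0.12, edgeR adjusted p 3.23e-05), although its neighbour Opcml, 69.3 kb away on the opposite strand with 0 listed genes between them, was higher. Within each library Ntm was lower in Meis2>Pax6 cells (404, 294, 149 and 589 against 771, 815, 225 and 939). Cntn1, the contactin of the nodal and paranodal axon membrane, was at 48.8, 36.6, 17.7 and 27.0 against 56.8, 71.3, 33.1 and 39.4 (−0.73, SE 0.12, edgeR adjusted p 0.000275). Its paranodal partner Cntnap1 was also lower, at 2.54 to 3.93 against 6.76 to 10.0 (−1.18, SE 0.25, edgeR adjusted p 0.00141). Alcam (CD166), which binds itself and CD6, was at 46.8 to 66.3 against 54.6 to 83.2 (−0.40, SE 0.11, edgeR adjusted p 0.00682).

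The direction of 3 of these calls turned when cycling cells and cells with an Atoh1 UMI were left out. There 21 of 27 members were called, 18 of them higher, against 31.3% of all genes. Alcam was then higher in Meis2>Pax6 cells (log2 fold change 0.46, edgeR adjusted p 0.0446), and L1cam (−0.21) and Nfasc (−0.18) had the opposite sign and were not called. The left-out cells carried more Alcam in Pax6>Meis2 cells of all 4 libraries (90.9, 81.8, 62.4 and 90.0 against 55.2, 26.8, 19.4 and 51.8 in the cells that remained). They carried less L1cam (46.4, 76.8, 33.4 and 26.4 against 194, 211, 149 and 126).

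**Figure D3:**
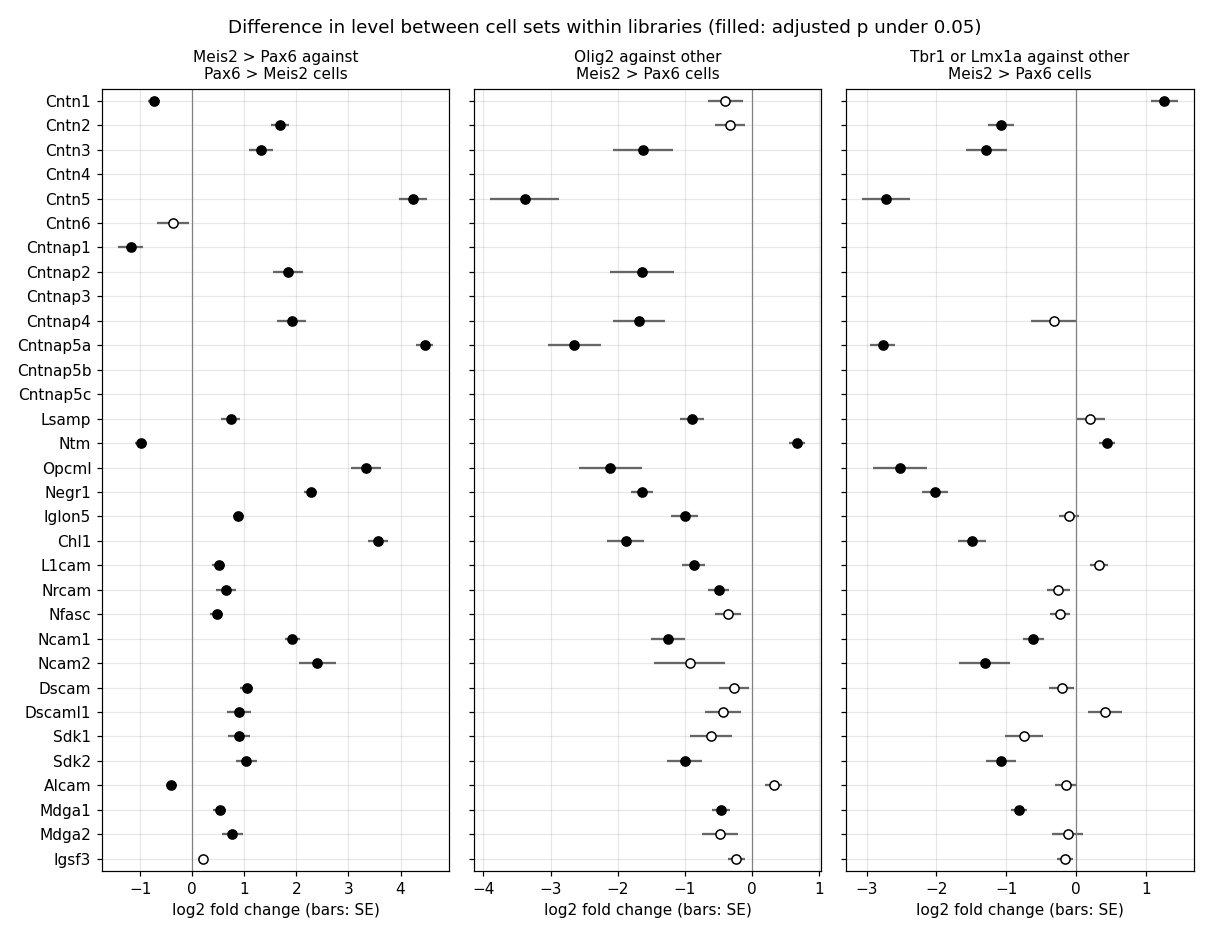
Log2 fold change (x axis, bars are SE) of each member between cell sets within libraries: Meis2>Pax6 against Pax6>Meis2 cells (left), Olig2 cells (middle) and Tbr1 or Lmx1a cells (right) against other Meis2>Pax6 cells; filled points have an adjusted p under 0.05. In the left panel 22 filled points lie right of 0 and 4 left of it.

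Cells with mitotic genes or Atoh1 were then set apart from the other cells of each set, as a description with no test. The split used UMIs as read, so shallow precursors can fall among the other cells. How many of all genes differ in the same way was not counted, so the counts below do not set the members apart from other genes. In Pax6>Meis2 cells 17 of the 29 members with at least 40 UMIs were higher in cells with neither mitotic genes nor Atoh1, in 4 of 4 libraries. They included all 4 L1-family genes, Ncam1 and Cntn2. Cntn3, Alcam and Mdga2 were lower there in 4 of 4 libraries. In Meis2>Pax6 cells 22 of 29 members were higher in the cells that remained and 0 were lower in all 4 libraries. Nrcam was at 155, 170, 111 and 119 CPM in cycling or Atoh1 cells of the Pax6>Meis2 set and 363, 342, 321 and 280 in the others.

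Olig2 cells, and separately Tbr1 or Lmx1a cells, were compared with Meis2>Pax6 cells that had no UMI of the 3 genes. Both sets had less of most members, but they also held many Pax6>Meis2 cells. These made up 58.9%, 11.5%, 44.9% and 77.6% of the Olig2 cells and 51.4%, 22.7%, 54.9% and 73.6% of the Tbr1 or Lmx1a cells, in the order above. Mitotic genes summed to 1900, 537, 2302 and 2663 CPM in the compared Olig2 cells (no Tbr1 or Lmx1a UMI). They summed to 1629, 396, 1808 and 1725.5 in the compared Tbr1 or Lmx1a cells (no Olig2 UMI). In the other Meis2>Pax6 cells the sums were 334, 251, 705 and 284. In Olig2 cells 16 of 26 members were called, 15 lower and 1 higher, against 22.3% of 10610 genes, 10.2% lower and 12.1% higher. Cntn5 (log2 fold change −3.38), Cntnap5a (−2.64), Opcml (−2.11), Chl1 (−1.88), Cntnap4 (a partner protein of contactins, −1.68) and Negr1 (−1.64) were lower, with edgeR adjusted p-values of 0.000497 to 0.0126. When control replicate 2 was left out, Cntn5 was at −4.75 and Opcml at −2.98. Ntm was the 1 higher gene (0.67, SE 0.13, edgeR adjusted p 0.00508), and it was not called when only Olig2 cells with more Meis2 than Pax6 were taken (0.22). With that restriction Cntn5, Cntnap5a, Lsamp, Negr1 and Chl1 were called, all lower, 5 of 24 members against 1.44% of genes. Without control replicate 1 only 5 of 26 members were called in the full comparison (Cntn5, Cntnap5a, Ntm, Negr1 and Chl1; 4.84% of genes), and Opcml (−1.88), Cntnap4 (−1.36) and Ncam1 (−1.12, against −1.25 with all libraries) lost their calls. Ntm lost its call without CKO replicate 1 (0.62, edgeR adjusted p 0.0564).

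Tbr1 or Lmx1a cells carried more Cntn1. It was at 59.6, 93.1, 46.2 and 61.6 in them and at 47.6, 27.6, 15.9 and 31.3 in the other Meis2>Pax6 cells, so the 2 sets overlap by 1 pair of libraries although every library showed the same direction (log2 fold change 1.26, SE 0.19, edgeR adjusted p 0.000386). It was also called among Tbr1 or Lmx1a cells with more Meis2 than Pax6. In all, 13 of 25 members were called, 2 higher and 11 lower, against 18% of 10249 genes, 9.98% higher and 8.02% lower. The second higher gene was Ntm (0.44, edgeR adjusted p 0.018). Cntnap5a (−2.77), Cntn5 (−2.72), Opcml (−2.52), Negr1 (−2.02) and Chl1 (−1.49) were lower (edgeR adjusted p 3.18e-07 to 0.000394), as were Cntn2 (−1.07, 0.00112), Mdga1 (−0.82, 0.000261) and Ncam1 (−0.61, 0.0122). When control replicate 2 was left out, Opcml was at −3.14. Among cells that also had more Meis2 than Pax6, 10 of 26 members were called, 5 in each direction, against 3.7% of genes; Ntm (0.14), Cntn2 (−0.15) and Chl1 (−0.36) were not called and Ncam1 was higher (0.30, edgeR adjusted p 0.034). In the full comparison the call of Ntm was lost without CKO replicate 1 (0.41, edgeR adjusted p 0.177), and that of Ncam1 without control replicate 1, CKO replicate 1 or CKO replicate 2 (−0.57, −0.61 and −0.51).

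The second question was how the deletion of En1 and En2 bears on these genes in granule lineage cells. In Pax6>Meis2 cells most members had lower values in the CKO libraries, but none passed the test. EdgeR called 0 of 29 members and 8 of 13931 genes (0.0574%). At an unadjusted p under 0.05 there were 14 members, all with lower values, against 9.82% of genes in either direction and 6.51% lower. DESeq2 called 2 members, Cntnap5a and L1cam, against 0.653% of genes, and edgeR called 1, Negr1, without CKO replicate 2 (0.865% of genes). Both CKO libraries lay below both controls for 21 of 29 members and above them for 0, against 34.9% and 12.6% of genes. The median log2 fold change was −0.59 over the members and −0.01 over all genes. It was −0.25 over 28 members in intact cells (4000 or more UMIs, a mitochondrial share of 5% or less) and −0.41 over 24 in cells thinned to 2000 UMIs, with 5 members at an unadjusted p under 0.05 in each. In all fits of thinned cells the sets were defined anew from the thinned UMIs, so they do not hold the same cells.

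Among contactins and partners, Cntnap5a had the largest value (levels given above; log2 fold change −2.005, SE 0.41, edgeR adjusted p 0.16), from 21 to 59 UMIs per library. Cntn1 was at 56.8 and 71.3 in control and 33.1 and 39.4 in CKO libraries (−0.69, SE 0.22, edgeR adjusted p 0.376). For both the groups did not overlap. Cntn2 overlapped (216 and 415 against 261 and 246), and its log2 fold change of −0.19 was smaller than its SE of 0.31. Cntn3 to Cntn6 and the other partners ranged from −1.47 (Cntn5) to 0.10 (Cntn6).

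Of the L1 family all 4 members had both CKO libraries below both controls. L1cam was at 84.5 and 143 against 47.3 and 44.3 (mean 114 ± 41.5 and 45.8 ± 2.10, SD, n = 2 each; log2 fold change −1.18, SE 0.26, edgeR adjusted p 0.199). L1cam is on the X chromosome, and Xist, which marks cells with an inactive X, stood at 0.343, 2393, 1328 and 410 in these libraries. Its part in the result was not tested. Chl1 was at 15.6 and 27.1 against 10.8 and 8.38 (−0.98, edgeR adjusted p 0.35). Nrcam was at 209 and 255 against 136 and 148 (−0.58, edgeR adjusted p 0.479), and Nfasc at 126 and 206 against 95.2 and 103 (−0.61, edgeR adjusted p 0.495).

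Negr1 was at 68.1 and 94.0 in control and 24.2 and 47.9 in CKO libraries (log2 fold change −1.03, SE 0.31, edgeR adjusted p 0.327), without overlap. Ntm overlapped, with CKO replicate 1 at 225 and CKO replicate 2 at 939 on either side of the controls, and its log2 fold change was −0.33 with an SE of 0.51 (0.36 when the former was left out, −1.67 when the latter was). Ncam1 was at 361 and 790 against 308 and 252 (−0.91, SE 0.36, edgeR adjusted p 0.48), and it was at −0.23 without control replicate 2. Dscaml1, a homophilic recognition protein, was at 8.99 and 25.9 against 8.91 and 5.37 (−1.07, SE 0.45, edgeR adjusted p 0.495), and it was at −0.21 when control replicate 2 was left out and −1.70 when control replicate 1 was. Alcam, Lsamp and Cntn6 were the 3 tested members with a positive value, 0.10 to 0.18.

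When cycling and Atoh1 cells were left out, the median over 24 members was −0.28 in place of −0.59 and 0 were called (0.0271% of genes). L1cam was then at −0.49, Nrcam at −0.16, Ncam1 at −0.30 and Cntn2 at 0.12, while Negr1 was at −1.21 and Cntnap5a at −1.96. Both kinds of cell were found by UMIs as read, so more of the deeper CKO cells were left out. Markers of nuclei neurons summed to 197 and 504 CPM in control and 210 and 132 in CKO Pax6>Meis2 cells. Their part in the result was not tested.

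**Figure D4:**
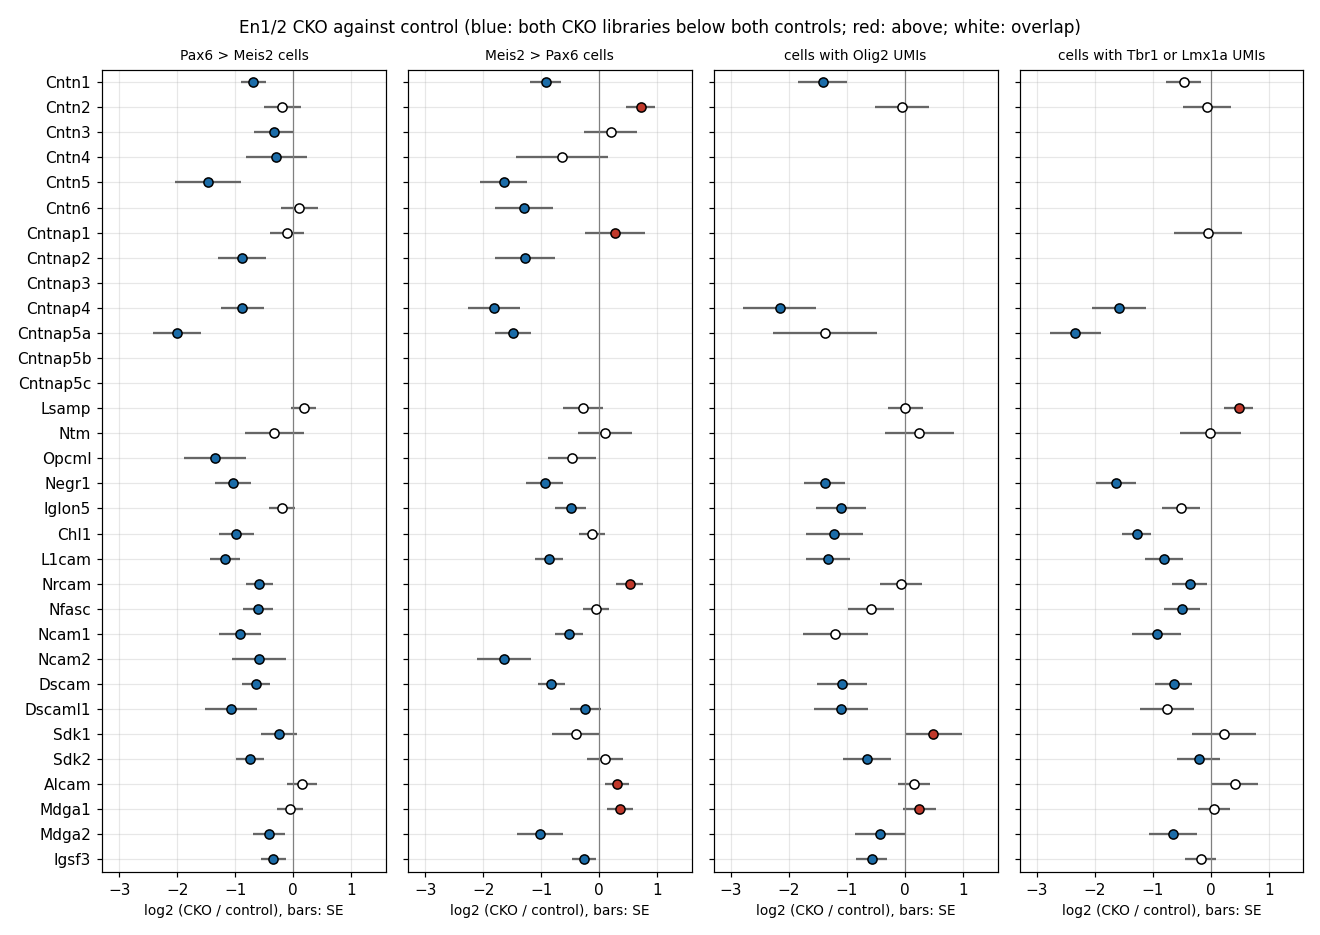
Log2 fold change (CKO over control, x axis, bars are SE) of each tested member in the 4 cell sets; blue points have both CKO libraries below both controls, red above, white overlap. The points of Negr1, L1cam and Cntnap4 lie left of 0 in all 4 panels, and no point passed the adjusted test.

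In Meis2>Pax6 cells the members split. Several sparse contactins and partners had lower values in both CKO libraries, while Cntn2 and Nrcam had higher ones. EdgeR called 0 of 29 members and 25 of 11804 genes (0.212%). At an unadjusted p under 0.05 there were 12, of which 11 were lower and 1, Cntn2, higher, against 14.7% of genes, 6.82% lower and 7.85% higher. DESeq2 called Cntnap4 and Cntnap5a, both lower, against 1.47% of genes. Both CKO libraries lay below both controls for 15 members and above for 5 (Cntn2, Cntnap1, Nrcam, Alcam and Mdga1), against 24.6% and 19.8% of genes. The median was −0.46 over the members and −0.01 over all genes. The median was −0.59 over 20 members in intact and −0.19 over 25 in thinned cells. Without CKO replicate 2, 10 members were called, all lower, against 751 of 12826 genes (5.86%), among them Ntm (−1.13, edgeR adjusted p 0.0243), which was at 0.10 with all libraries and 0.78 when CKO replicate 1 was left out. Without control replicate 1, control replicate 2 and CKO replicate 1 the counts were 2 (Cntnap5a and Ncam2), 3 (Cntn5, Cntnap4 and Cntnap5a) and 0, against 2.02%, 0.821% and 0.384% of genes.

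Of the contactin-associated proteins, Cntnap5a, Cntnap4 and Cntnap2 (log2 fold change −1.27) lay at the low end. Cntnap1 went the other way (0.28, edgeR adjusted p 0.855). Cntnap5a stood at 117 and 115 in control and 26.3 and 58.4 in CKO libraries (mean 116 ± 1.18 and 42.3 ± 22.8, SD, n = 2 each; log2 fold change −1.49, SE 0.31, edgeR adjusted p 0.0975). Cntnap4 was at 33.1 and 14.4 against 4.75 and 8.43 (−1.82, SE 0.45, edgeR adjusted p 0.133), and Cntn5 at 39.7 and 17.4 against 7.24 and 10.1 (−1.64, SE 0.41, edgeR adjusted p 0.133). Cntn1 was at 48.8 and 36.6 against 17.7 and 27.0 (−0.92, SE 0.26, edgeR adjusted p 0.17). None of these groups overlapped. Without control replicate 1, Cntnap4 was at −1.22 and Cntn5 at −1.05. Cntn2 went the other way, at 633 and 827 against 1101 and 1255 (mean 730 ± 137 and 1178 ± 109, SD, n = 2 each; 0.72, SE 0.25, edgeR adjusted p 0.234).

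In the L1 family Nrcam was at 213 and 283 in control and 336 and 367 in CKO libraries (log2 fold change 0.53, SE 0.24, edgeR adjusted p 0.341), with both CKO libraries above. L1cam was at 140 and 153 against 62.0 and 97.2 (−0.87, SE 0.24, edgeR adjusted p 0.163), with both below. Chl1 and Nfasc overlapped (−0.12 and −0.06). Among the others, Ncam2 was at 18.3 and 17.4 against 2.94 and 10.1 (−1.64, SE 0.47, edgeR adjusted p 0.171) and Dscam, a homophilic receptor of axon and dendrite spacing, at 37.1 and 41.2 against 20.4 and 23.6 (−0.83, SE 0.23, edgeR adjusted p 0.17). Negr1 was at 443 and 323 against 125 and 267 (−0.94, edgeR adjusted p 0.227), Ncam1 at 1733 and 1977 against 1182 and 1348 (−0.52, edgeR adjusted p 0.345), and Mdga2, a partner that blocks neuroligins, at 27.5 and 17.9 against 6.79 and 16.3 (−1.02, edgeR adjusted p 0.286). The values of these 5 genes did not overlap between groups. With CKO replicate 1 left out, Ncam2 was at −0.81 and Mdga2 at −0.41. Leaving out CKO replicate 2 instead gave −2.51 for Ncam2 and −1.52 for Negr1.

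Other cell markers moved in the same libraries. Mitotic genes summed to 369 and 244 CPM in control and 773 and 511 in CKO Meis2>Pax6 cells, with all 6 at an unadjusted p under 0.05 and 0 called. Granule lineage markers summed to 1680 and 1241 against 1895 and 2127, with 5 of 9 at an unadjusted p under 0.05 and 0 called, and nuclei neuron markers to 2453 and 3114 against 2681 and 2357. Without cycling and Atoh1 cells the median over 26 members was −0.04 and 0 were called (0.0395% of genes). Cntn2 (0.91) and Nrcam (0.95) were then larger, Cntnap5a (−1.12) and Cntnap4 (−1.23) smaller, and Ncam1 was at −0.04. The part of cell makeup in these values was not tested. The lower count of cells in CKO replicate 2 (372) and their number in control replicate 2 (2322) set unequal precision.

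Whether the genotype difference itself depended on the cell set was tested by an interaction term, with both sets of each library in 1 fit. Nrcam, the neuronal cell adhesion protein of axons and nodes, was the 1 member called of 29, against 15 of 13146 genes (0.114%), and DESeq2 also called it (0.0989% of genes). Its genotype difference was 1.13 higher on the log2 scale in Meis2>Pax6 than in Pax6>Meis2 cells (SE 0.18, edgeR adjusted p 0.0275), from −0.58 to 0.53. In Pax6>Meis2 cells the mean was 232 ± 33.1 in control and 142 ± 8.24 in CKO libraries, and in Meis2>Pax6 cells 248 ± 49.5 and 352 ± 22.5 (CPM, SD, n = 2 each). Both CKO libraries thus lay below both controls in the first set and above them in the second. In control libraries the 2 sets had like levels (209 and 255, 213 and 283), and in CKO libraries they parted.

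The Nrcam difference was 1.12 without cycling and Atoh1 cells (edgeR adjusted p 0.00828) and 1.22 in cells thinned to 2000 UMIs each (edgeR adjusted p 0.00168). In cells with neither mitotic genes nor Atoh1, Nrcam was at 363, 342, 321 and 280 in the Pax6>Meis2 set and at 236, 290, 531 and 511 in the Meis2>Pax6 set. It was 0.69 and not called in intact cells (edgeR adjusted p 0.0741), where Ntm was the 1 member called, and it was not called without CKO replicate 1 (1.09, edgeR adjusted p 0.242) or CKO replicate 2 (1.19, edgeR adjusted p 0.0978). Cntn2 had the second lowest adjusted p among members (0.86, SE 0.22, edgeR adjusted p 0.28). It was called in thinned cells (0.95, edgeR adjusted p 0.0153) and when either control library was left out; without control replicate 1, 9 members were called, against 422 of 13458 genes (3.14%).

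**Figure D5:**
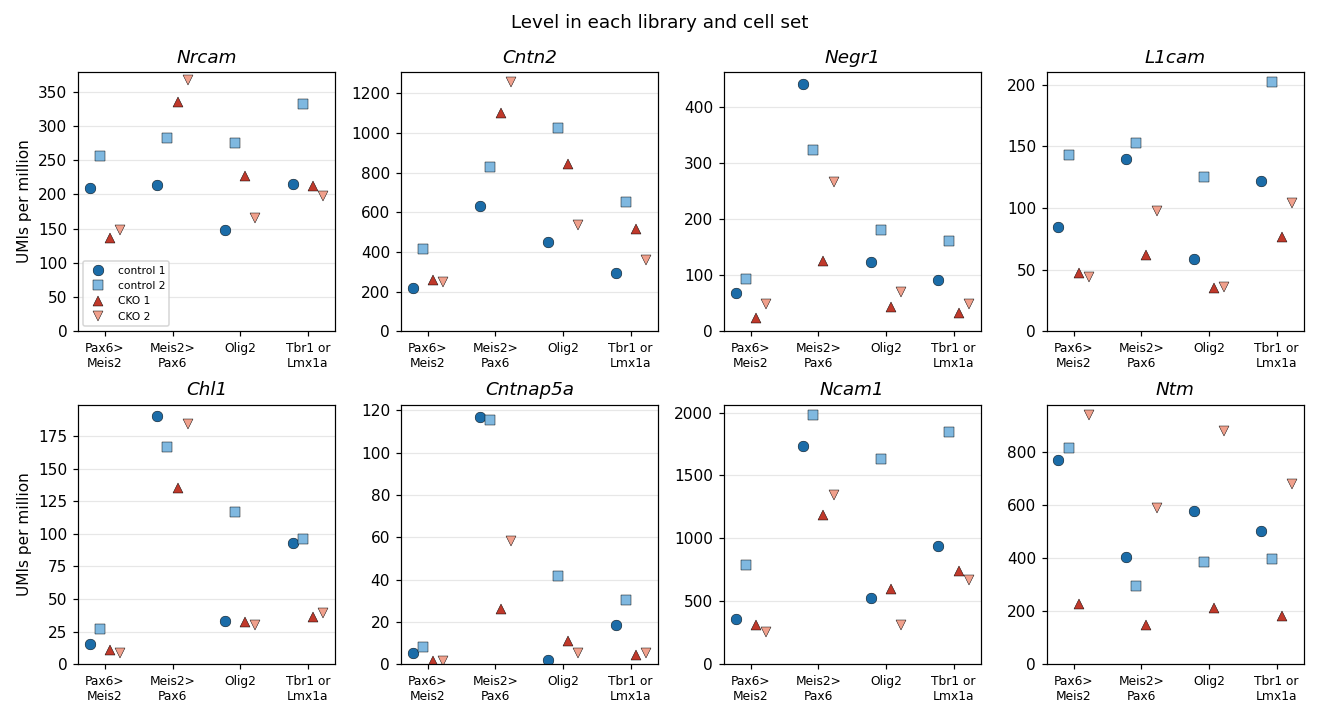
Level (CPM) of 8 members in each library and cell set; circles and squares are the control libraries and triangles the CKO libraries. Nrcam and Cntn2 have both CKO libraries above both controls in Meis2>Pax6 cells only, while Ntm has CKO replicate 1 below the other 3 libraries in every set.

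In Olig2 cells edgeR called 0 of 21 members and 2 of 10524 genes (0.019%). At an unadjusted p under 0.05 there were 8, all with lower values, against 7.63% of genes, 4.84% lower, and DESeq2 called 0 members (0.2% of genes). The median over the members was −0.65, but −0.17 over 20 members in intact cells and 0.25 over the 9 members tested in thinned cells, where 2 were at an unadjusted p under 0.05. The thinned Olig2 set, defined anew, held only 44 and 182 control and 38 and 38 CKO cells. Median UMIs per Olig2 cell were 4234 and 2606 in control and 13268 and 14646 in CKO libraries. Both CKO libraries lay below both controls for 11 members and above for 2 (Sdk1 and Mdga1), against 23.3% and 17% of genes. Negr1 was at 124 and 181 in control and 42.5 and 69.5 in CKO libraries (log2 fold change −1.39, SE 0.35, edgeR adjusted p 0.46). L1cam was at 58.7 and 125 against 35.4 and 35.6 (−1.33, edgeR adjusted p 0.478), and Cntn1 at 37.6 and 35.0 against 8.002 and 18.0 (−1.42, edgeR adjusted p 0.525; −2.11 without CKO replicate 2). Chl1 (−1.22), Iglon5 (−1.10), Dscam (−1.08) and Dscaml1 (−1.11) also had both CKO libraries below both controls.

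Control replicate 2 stood apart in the Olig2 set. It had 1627 CPM of Ncam1 against 529 in control replicate 1, 117 of Chl1 against 33.0, and 41.5 of Cntnap5a against 1.84. Its Olig2 cells were mostly Meis2>Pax6 (72.7%, against 25.9% in control replicate 1), and their erythroid genes summed to 9243 against 8.3 CPM. Leaving out control replicate 2 gave Chl1 −0.02, Iglon5 −0.43, Dscaml1 −0.46 and L1cam −0.67 and 0 members called (0.281% of genes). Leaving out control replicate 1 gave Chl1 −1.84 and 13 members called, all lower, against 1308 of 11463 genes (11.4%). Among Olig2 cells with more Meis2 than Pax6, 4 of 19 members were called, all lower (Cntn1, L1cam, Ncam1 and Ncam2), against 4.56% of 7815 genes. There Cntn1 was at −2.22 (edgeR adjusted p 0.0287) and L1cam at −1.28 (edgeR adjusted p 0.0206), in 25 to 266 cells per library.

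In Tbr1 or Lmx1a cells edgeR called 0 of 22 members and 1 of 10196 genes (0.00981%). At an unadjusted p under 0.05 there were 5 members, all with lower values (Cntnap4, Cntnap5a, Negr1, Chl1 and L1cam), against 8.94% of genes, 5.47% lower. DESeq2 called Negr1, against 0.167% of genes, and edgeR called 4 without control replicate 1 (Cntnap5a, Negr1, Chl1 and Ncam1; 4.25% of genes) and 2 without CKO replicate 2 (Cntnap5a and Negr1; 0.834%). The median over the members was −0.48, −0.17 in intact cells and −0.11 over 18 members without cycling and Atoh1 cells. The thinned set held 63 and 238 control and 87 and 39 CKO cells. There the median was 0.15 over the 13 members tested, and Lsamp was the 1 member called, higher in CKO. Median UMIs per cell were 3085 and 2547 in control and 5639.5 and 5264 in CKO libraries. Mitotic genes summed to 1549 and 377 against 1809 and 1682 CPM, and nuclei neuron markers to 669 and 1746 against 860 and 323. Their part in the result was not tested. Both CKO libraries lay below both controls for 11 members and above for Lsamp, against 24.3% and 18.3% of genes. Cntnap5a was at 18.4 and 30.5 in control and 4.44 and 5.25 in CKO libraries (log2 fold change −2.33, SE 0.44, edgeR adjusted p 0.341). Negr1 was at 91.9 and 161 against 32.04 and 48.7 (−1.64, SE 0.35, edgeR adjusted p 0.341), and Chl1 at 93.0 and 95.9 against 36.5 and 39.0 (−1.28, SE 0.25, edgeR adjusted p 0.341). The values of these 3 genes did not overlap between groups, but Chl1 was at 0.38 in thinned cells. Lsamp, an IgLON of limbic and other neurites, was at 95.1 and 82.9 against 116 and 124 (0.48, edgeR adjusted p 0.575). With only cells that had more Meis2 than Pax6, 0 of 20 members and 0 of 7553 genes were called (0%), with 6 members and 531 genes at an unadjusted p under 0.05.

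Across the 4 sets, which share cells, Negr1, L1cam, Cntnap4, Dscam, Mdga2, Ncam2 and Cntn5 had both CKO libraries below both controls in each. Ncam2 and Cntn5 had few UMIs in the Olig2 and the Tbr1 or Lmx1a sets and were not tested there. Within a single set 23.3% to 34.9% of all tested genes lay below in this way, and the share over all 4 sets was not counted. Ncam1 had both CKO libraries below both controls in all but the Olig2 set. There CKO replicate 1 (600) lay above control replicate 1 (529). Cntn1 was below in all but the Tbr1 or Lmx1a set (58.4 and 85.5 against 43.1 and 59.9). Cntnap4 was at 1.26 to 8.43 in CKO and 4.42 to 33.1 in control libraries over the 4 sets. Igsf3 was below in all but the Tbr1 or Lmx1a set, Cntnap5a in all but the Olig2 set and Chl1 in all but the Meis2>Pax6 set. Ntm overlapped in all 4.

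Other genes of the adhesion system were read from 2 lists of 30 further immunoglobulin-type proteins (such as Cadm1 to Cadm4 and the nectins) and 20 partners and modifiers (such as receptor phosphatases, ankyrins and polysialyltransferases). In Meis2>Pax6 against Pax6>Meis2 cells 20 of 26 tested genes of the first list were called, 15 higher, and 18 of 20 of the second, 15 higher, where 52.3% of all genes were called, 25.3% higher. Between genotypes 0 of 28 and 0 of 20 were called in Pax6>Meis2 cells, with medians of −0.35 and −0.50, beside −0.59 for the members. In Meis2>Pax6 cells 1 of 26 was called, Vstm2l, an immunoglobulin-domain protein, which fell (log2 fold change −1.43, SE 0.21, edgeR adjusted p 0.0367), and 0 of 20, with medians of −0.33 and −0.42. In the Olig2 and in the Tbr1 or Lmx1a cells 0 were called, with 6 of 21 and 6 of 20 at an unadjusted p under 0.05 in the former (7.63% of all genes) and 7 of 21 and 8 of 19 in the latter (8.94%), all lower.

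The genes of these families span 17.2 to 2245 kb (median 349 kb, GENCODE M21, GRCm38), and 13 of 32 exceed 500 kb. Cntnap2, on chromosome 6 from 45059357 to 47304213, was the longest, at 1.64 to 3.43 CPM in Pax6>Meis2 and 3.62 to 19.8 in Meis2>Pax6 cells. Nrcam lies on chromosome 12 from 44328885 to 44601964 and Ncam1 on chromosome 9 from 49502136 to 49798925. Cntn2 (chromosome 1, 132509427 to 132543256) and Nfasc (132564690 to 132741797) are 21.4 kb apart on 1 strand. Both were higher in Meis2>Pax6 cells, but the direction of Nfasc turned when cycling and Atoh1 cells were left out, as given above. Between genotypes in Meis2>Pax6 cells Cntn2 was at 0.72 and Nfasc at −0.06.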

How the data were processed

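The authors deposited raw UMI counts per gene and cell barcode for 4 Chromium 3′ libraries, from Cell Ranger 5.0.0 with the mm10 mouse genome, per the submitters' processing notes. The annotation is not given in the sources used here. Barcodes were kept by the limits given in the report, and doublets were kept; an alternative removed, at 0.8% per 1000 cells, the cells with most simulated doublets among their nearest neighbours. Sets were defined by UMIs of Pax6, Meis2, Olig2, Tbr1 and Lmx1a, and counts were summed per set and library, since cells are not replicates. EdgeR 4.0.16 (filterByExpr, TMM factors, quasi-likelihood F test) compared groups, or sets with the library as a block, with Benjamini-Hochberg adjustment over all tested genes. The SE is the log2 fold change divided by the square root of F. DESeq2 1.42.0 was an alternative. Other alternatives used RLE factors, no count filter, intact cells, cells thinned to 2000 UMIs, cells of 1 set, cells neither cycling nor with Atoh1, the replicate block, and each library left out. For the thinned fits the sets were defined anew from thinned UMIs, while the thinned cycling and Atoh1 shares are of the original sets. Restricting Olig2 and Tbr1 or Lmx1a cells to those with more Meis2 than Pax6 UMIs was added after seeing the data. The script was tested on simulated data. It recovered 95% of changed genes at a log2 change of 2 for genotypes in Pax6>Meis2 cells (13795 genes) and 61% for the interaction (12733 genes). Every simulated gene had the same spread, only genes above a low count limit were changed, and libraries differed only in total counts. These shares check the script and do not give the power of the real fits. In the real Pax6>Meis2 fit Cntnap5a, at −2.005, was not called.

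The members and lists were chosen with earlier results of these data known. Members were named where they were called between genotypes or in the interaction, or were among the 8 highest in Pax6>Meis2 or Meis2>Pax6 cells. Also named were those with at least 10 CPM, a log2 fold change of at least 1 and no overlap between groups in a genotype comparison. For some of them a range or only a log2 fold change is given in place of every library's value. The 5 called members with the largest change each way in each comparison of sets, at 10 CPM or more, were added. This took 21 of 32 members; other values were chosen after they were seen. UMI sums per set ranged from 924954 to 29253054, and 3 counts correspond to 0.103 to 0.946 CPM in Pax6>Meis2 and 0.496 to 1.69 in Meis2>Pax6 cells, for counting error only. Analysis used Python 3.11.15 and R 4.3.3.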

Additional observations from a re-analysis of the deposited data

Results flagged for a closer look

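The genotype difference of Nrcam differed between Pax6>Meis2 and Meis2>Pax6 cells, by 1.13 on the log2 scale in the edgeR interaction test (adjusted p 0.0275). Over the alternatives that kept all 4 libraries it ranged from 0.69 in intact cells, where the call was lost (edgeR adjusted p 0.0741), to 1.22 in thinned cells, and over the fits without 1 library from 1.00 to 1.29. The call was lost without either CKO replicate, which leaves that group with 1 library, taken to vary like the other group. Both CKO libraries lay below both controls in the first set and above them in the second.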

How the results depend on the processing

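Over the 72 log2 fold changes tested under alternatives, 783 of 915 alternative values kept direction and side of the threshold, 22 reversed, 39 lost a call and 71 gained one. Members called between genotypes numbered 0 in each set. By DESeq2 they were 2 in Pax6>Meis2, 2 in Meis2>Pax6 and 1 in Tbr1 or Lmx1a cells, against 0.653%, 1.47% and 0.167% of genes. With no count filter they were 5, 7 and 4, against 348 of 21414, 559 of 19508 and 256 of 17841 genes. Leaving out 1 library gave 0 to 1, 0 to 10, 0 to 13 and 0 to 4 called in the Pax6>Meis2, Meis2>Pax6, Olig2 and Tbr1 or Lmx1a sets. Thinned cells gave 1 (Lsamp) in the Tbr1 or Lmx1a set, against 2 of 3274 genes. Olig2 cells with more Meis2 than Pax6 gave 4, against 356 of 7815 genes (an alternative chosen after seeing the data). In the interaction, 1 became 2 in thinned cells and 0 to 9 without 1 library. For levels in Meis2>Pax6 against Pax6>Meis2 cells, 26 became 16 in intact cells, and all genes called went from 6473 of 12387 to 4350 of 10647. For Olig2 cells, 16 became 7 in intact, 5 in thinned, 9 without cycling and Atoh1 cells and 6 in controls only. There all genes called went from 2361 of 10610 to 1320 of 8576, 136 of 6205, 688 of 8291 and 382 of 10194. With more Meis2 than Pax6 the members became 5 (134 of 9283 genes), and without 1 library 5 to 20 (528 to 3544 genes). For Tbr1 or Lmx1a cells, 13 became 6 in controls only, and all genes called went from 1845 of 10249 to 448 of 10446.

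Labels do not say that replicate numbers pair the libraries, and same-numbered libraries deviated with correlations of −0.17, −0.24, −0.33 and −0.085 in the 4 sets. With the replicate block 1 member was called in Meis2>Pax6 cells (Cntnap5a, −1.52, edgeR adjusted p 0.02) and 0 in the other sets; all genes called went from 8 to 0 in Pax6>Meis2 and from 25 to 58 in Meis2>Pax6 cells, and Ntm was at −0.17 in the latter. The crossed pairing, added after seeing the data, called 4, 10 and 5 members in the Pax6>Meis2, Meis2>Pax6 and Olig2 sets, with Ntm at −0.18 in the second.

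Reversed genotype values were Cntn2 in Pax6>Meis2 cells (0.16 in intact cells, 0.12 without cycling and Atoh1 cells, −0.54 to 0.37 without 1 library), Ntm there (0.053 in intact cells, −1.67 to 0.36 without 1 library) and in Meis2>Pax6 cells (−0.19 in thinned cells, −1.13 to 0.78 without 1 library), Dscam in thinned Meis2>Pax6 cells (0.083), and Chl1 in intact Olig2 (0.14) and thinned Tbr1 or Lmx1a cells (0.38). Reversed levels were Alcam (0.46), L1cam (−0.21) and Nfasc (−0.18) without cycling and Atoh1 cells. Cntn2 in Olig2 cells was at 0.29 thinned, 0.28 without cycling and Atoh1 cells, 0.075 in controls only and 0.39 with more Meis2 than Pax6. Ncam1 in Tbr1 or Lmx1a cells was at 0.22 thinned and 0.30 with more Meis2 than Pax6. The cause was not tested. All genes called between genotypes were 8, 25, 2 and 1 in the 4 sets, 91, 174, 21 and 17 by DESeq2, 348 and 559 with no filter in the first 2, up to 123, 751, 1308 and 461 without 1 library, and 207, 763 and 449 in the first 3 with the crossed pairing. In the interaction they were 15, and 28 to 422 without 1 library. With cells of 1 set only, Olig2 and Tbr1 or Lmx1a cells gave no value, since a library held under 20 cells. With 2 libraries a group, precision rests on 4 pools of embryos.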

Other observations

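Ntm, the IgLON neurotrimin, separated the 2 CKO libraries from each other in every set. CKO replicate 1 stood at 225, 149, 213 and 181 CPM in Pax6>Meis2, Meis2>Pax6, Olig2 and Tbr1 or Lmx1a cells, and CKO replicate 2 at 939, 589, 880 and 680, with both controls between them in all 4 sets. The cells in none of the sets showed the same order, at 266 and 1563, with controls at 763 and 597. Lsamp, another IgLON, did not part the CKO libraries in those cells (127 and 128, with controls at 84.0 and 52.1).

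Cells in none of the sets carried L1cam at 113 and 118 in control and 105 and 100.4 in CKO libraries, a narrower range than in any of the 4 sets. Negr1 in the same cells was at 213 and 181 against 54.1 and 104.2.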
